A study of Mus musculus with 6 samples.

Results

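The 6 arrays of this series were placed in order of their Kdr level, so the arrays on each side were chosen by measured Kdr values, and the 3 arrays with the highest Kdr were described against the 3 with the lowest. All 6 of the 6 deposited arrays took part. Each array measured total RNA of Flk1-positive cells sorted at day 3.5 from embryoid bodies, the aggregates in which mouse embryonic stem (ES) cells differentiate. The ES line, ER71 A17C, carries a doxycycline-inducible Etv2 cassette (ER71 A2Lox.cre) in a 129P2/Ola background, so every array shares that cassette. The aggregates were grown in hanging drops. The 3 arrays titled as inductions had doxycycline at 0.5 microg/ml for the last 12 hours, starting at day 3.0, and the 3 control arrays are untreated by the series' design text, although the treatment field carries the doxycycline text on all 6. With no doxycycline-treated line lacking the cassette among them, effects of the drug and of Etv2 cannot be told apart. No label says that replicates were separate cultures, and 1 cell line was used, so the spread between arrays may be partly technical.

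Kdr encodes Flk1, a receptor for vascular endothelial growth factor (VEGF). In the gastrulating embryo, epiblast cells that express Pou5f1 pass through the primitive streak, switch on Mesp1 and leave as mesoderm that carries Flk1 and the platelet-derived growth factor receptor Pdgfra. Lateral and cardiac mesoderm and the blood and endothelial lineages arise from such cells, and loss of epithelial junctions accompanies the passage.

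The order was set by the Kdr probe set, the only one for that gene with a single symbol. Its log2 RMA level was 10.97 in control 3, 10.52 in induced 3 and 10.02 in control 1. On the other side it was 9.56 in induced 1, 9.36 in induced 2 and 8.40 in control 2. Where 6 values are given in a row below, they follow this order, and the first 3 are the arrays with the higher Kdr. The Kdr levels at rank 3 and rank 4 lay 0.46 apart, about as far as those at rank 1 and rank 2. The widest step was not at this border but from 9.36 in induced 2 to 8.40 in control 2. The treatments are crossed with the order: 2 controls and 1 induced array are on the upper side, and 1 control and 2 induced arrays on the lower. Both arrays numbered 3 are on the upper side and both numbered 2 on the lower, so replicate number and Kdr level cannot be told apart for those 4 arrays. Because the arrays were ranked by a value measured on them, no difference along this order is tested. Each difference is the mean of the upper 3 minus the mean of the lower 3 on the log2 scale, given as a description.

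Of the given markers, Mesp1 and Pdgfra were higher on the upper side, though neither followed the exact Kdr sequence. Mesp1, a transcription factor of nascent mesoderm, stood at 13.05, 12.61 and 12.92 and then at 12.04, 11.85 and 11.30, a difference of 1.13. Pdgfra stood at 11.78, 11.34 and 11.71 and then at 10.89, 10.19 and 9.89, a difference of 1.29. Neither gene overlapped between the sides. Pou5f1, which encodes the pluripotency factor Oct4, stood at 12.67, 13.29 and 13.13 and then at 13.34, 13.31 and 13.46. Its difference was -0.34, the sides were only 0.02 apart, and within the induced arrays it differed by -0.03. Without control 3 the difference was -0.16. All 3 mesoderm markers were measured on every array, Kdr itself lying between the 51.9 and 84.8 percentile of all genes, and Pou5f1 lay at the 98.5 percentile of mean level. The arrays are bulk samples, in which fewer cells of a type and less RNA per cell cannot be told apart.

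**Figure D1:**
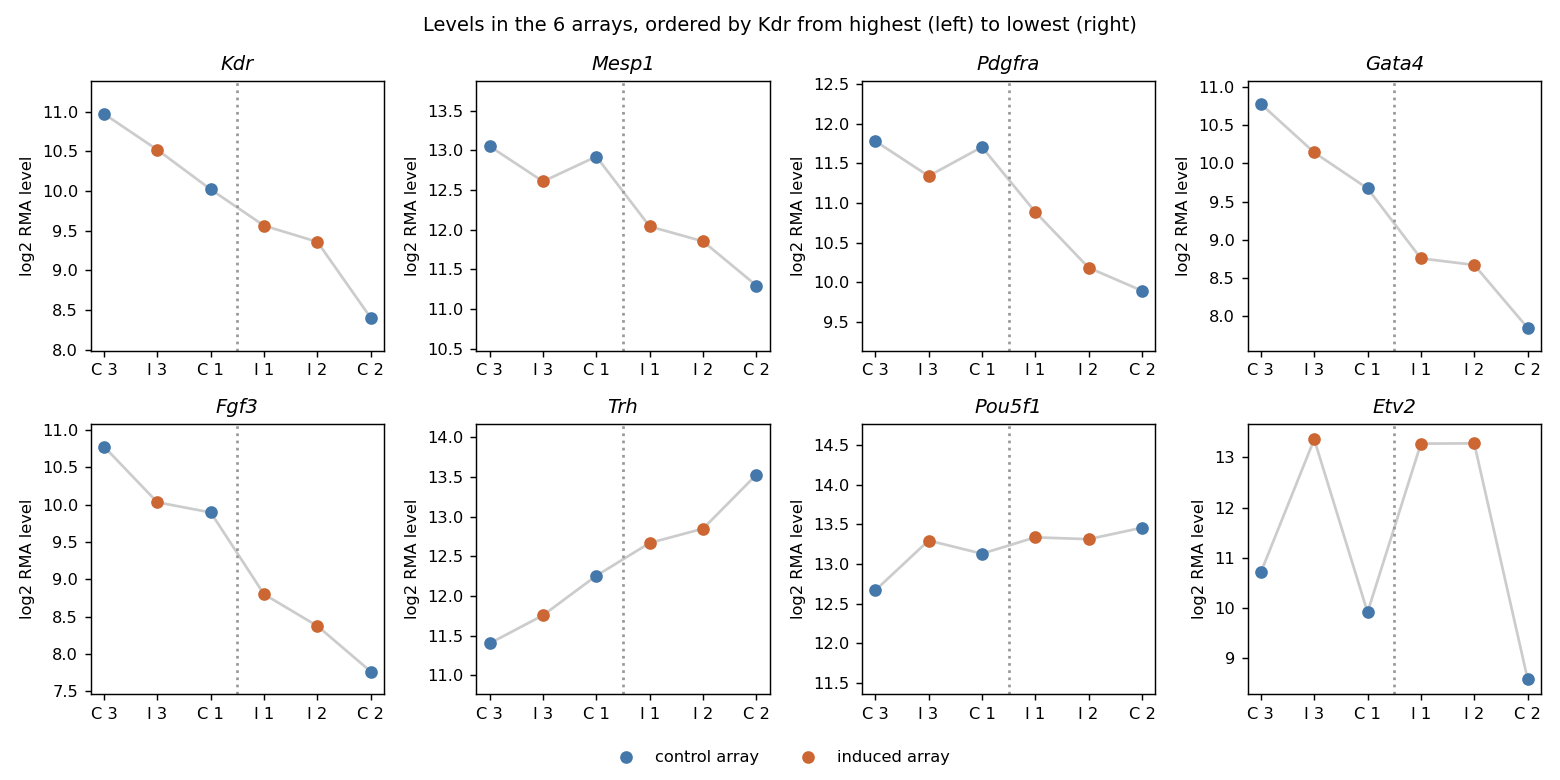
Log2 RMA level (y axis) of 8 genes in the 6 arrays, placed by Kdr from highest to lowest (x axis; C is control, I is induced, the number is the replicate), with the dotted line between rank 3 and rank 4. Panels have their own y range. Kdr runs from 10.97 to 8.40, Gata4 from 10.78 to 7.85 and Trh from 11.40 to 13.53, while Etv2 separates by treatment, at 13.27 to 13.36 in the induced arrays.

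The sequences before the annotated starts of 3 of these genes are shown because each was higher in every upper array than in any lower array. Each is the 250 bases upstream of the first start listed for the gene in RefSeq (GRCm38.p6), 5′ to 3′ in the gene's direction. They are Kdr, chr5:75978456-75978705, minus strand, Mesp1, chr7:79793591-79793840, minus strand, and Fgf3, chr7:144838362-144838611, plus strand. Capitals mark matches to the motifs searched.
Kdr: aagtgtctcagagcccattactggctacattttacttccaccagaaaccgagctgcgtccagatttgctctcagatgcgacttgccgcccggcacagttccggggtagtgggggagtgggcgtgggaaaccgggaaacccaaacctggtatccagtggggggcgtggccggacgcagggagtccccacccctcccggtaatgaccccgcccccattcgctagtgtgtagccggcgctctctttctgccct
Mesp1: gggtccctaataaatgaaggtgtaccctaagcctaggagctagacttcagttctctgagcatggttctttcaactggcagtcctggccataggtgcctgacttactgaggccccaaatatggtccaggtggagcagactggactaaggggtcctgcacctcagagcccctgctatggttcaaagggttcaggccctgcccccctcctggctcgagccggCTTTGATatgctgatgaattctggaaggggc
Fgf3: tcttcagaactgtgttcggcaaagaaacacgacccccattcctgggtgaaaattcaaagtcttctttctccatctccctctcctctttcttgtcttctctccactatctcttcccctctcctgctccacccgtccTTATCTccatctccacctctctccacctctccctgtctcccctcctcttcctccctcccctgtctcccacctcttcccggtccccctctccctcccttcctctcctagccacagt

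Both strands were searched for the GATA core AGATAA, the T-box site GGTGTGA, the octamer core TGCAAAT, the ETS site CCGGAAG, the forkhead core GTAAACA and the TCF and LEF core CTTTGAT. Mesp1 held 1 match, to the TCF and LEF core, Fgf3 held 1, to the GATA core, and Kdr held none, so no 2 matches overlap here. Of the 49 genes wholly higher by at least 2-fold, described next, 38 had a RefSeq promoter, and 3 of them (7.89%) held the GATA core against 7.47% of the 14452 promoters of genes on the array. The octamer core was also in 3 (7.89%), against 2.91%, and the T-box site in 1 (2.63%), against 3.07%. The ETS site was in 1 (2.63%) against 10.6%, the forkhead core in 1 (2.63%) against 2.51%, and the TCF and LEF core in 1 (2.63%) against 2.66%. Among the 12 promoters of genes lower by the same rule, the T-box site and the TCF and LEF core were each in 1 (8.33%), and the other 4 motifs were in 0. A match is a run of letters in the window and no more.

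Over 18193 genes, 49 were wholly higher and at least 2-fold higher in the upper 3 arrays, 0.269% of genes, and 13 were wholly and at least 2-fold lower, 0.0715%. Wholly higher here means that the lowest of the upper 3 values exceeds the highest of the lower 3. Without a size limit, 10.5% of genes were wholly higher and 8.22% wholly lower, 18.7% in all. These shares describe the contrast that set the order and support nothing by themselves. The median difference over all genes was -0.0043. Among the 49, Pcdh7 and Cer1 lay just inside the 2-fold limit, and Slc4a4, Dll3 and Rasgrp3 just outside it, at 1.99-fold, 1.97-fold and 1.96-fold. Without control 2, the array with the lowest Kdr, the rule gave 26 genes higher and 5 lower, of which 25 and 4 were among the 49 and 13. Without control 3, the array with the highest, it gave 40 and 4, of which 37 and 4 were.

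The 12 largest positive differences ran from 1.92 to 1.41. Fgf3, a fibroblast growth factor, stood at 10.78, 10.03 and 9.90 and then at 8.80, 8.38 and 7.77, a difference of 1.92 or 3.79-fold. Nrp1, the neuropilin that serves as a VEGF and semaphorin co-receptor, stood at 9.63, 9.80 and 8.63 and then at 8.21, 7.54 and 6.63, a difference of 1.89. For both genes all 3 upper arrays exceeded all 3 lower arrays, but only Fgf3 followed the exact sequence of Kdr.

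Gata4, a zinc-finger factor of cardiac mesoderm and endoderm, stood at 10.78, 10.14 and 9.67 and then at 8.76, 8.67 and 7.85, a difference of 1.77. Bmper, a secreted modulator of bone morphogenetic protein (BMP) signalling, stood at 10.49, 10.36 and 9.97 and then at 9.31, 8.53 and 7.67, also 1.77. Cxcr4, the receptor of the chemokine Cxcl12, stood at 11.58, 10.42 and 10.56 and then at 9.59, 9.25 and 8.50, a difference of 1.74. Control 3 was the highest array for each of these 3 genes and control 2 the lowest. For Gata4 a dimmer probe set, at a mean of 6.63, gave only 0.37 and overlapped.

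The remaining members of the 12 had differences from 1.60 to 1.41. They were Hs3st3b1, a heparan sulfate sulfotransferase (1.60), Rgs5, a regulator of G-protein signalling (1.58), the T-box factor Tbx3 (1.57), Wnt2 (1.56), Wnt5a (1.49), the GATA factor Gata3 (1.49) and the semaphorin Sema6d (1.41). Wnt5a, a ligand of non-canonical Wnt signalling, stood at 9.52, 9.58 and 9.53 and then at 8.93, 8.09 and 7.13, so that its upper arrays were level and its lower arrays spread. Gata3 stood at 8.58, 8.64 and 7.82 and then at 7.41, 7.02 and 6.15. The 3 other probe sets of Hs3st3b1 gave 0.0038, -0.13 and 0.087, and those of Sema6d gave 0.15, 0.11 and 0.13, all with overlap, so each gene's difference rests on 1 probe set.

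The 12 largest negative differences included Zfp462, a zinc-finger gene, at 8.67, 9.50 and 9.11 and then 10.18, 10.20 and 10.91, a difference of -1.33. Cpeb1, a regulator of mRNA polyadenylation, stood at 5.95, 6.47 and 6.38 and then at 7.53, 7.43 and 7.79, a difference of -1.32. Trh, the thyrotropin-releasing hormone precursor, stood at 11.40, 11.76 and 12.26 and then at 12.67, 12.85 and 13.53. Trh thus followed the Kdr sequence exactly in reverse, with a difference of -1.21.

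Mt1, a metallothionein, stood at 9.70, 11.04 and 10.87 and then at 11.87, 11.71 and 11.73, a difference of -1.24 that was -0.82 without control 3. Apoe, an apolipoprotein, stood at 10.11, 10.72 and 11.00 and then at 11.68, 11.68 and 11.75, a difference of -1.10. In both genes control 3 was low and the lower-Kdr arrays were nearly level. The others were Uchl1 (-1.21), a ubiquitin hydrolase, Ocln (-1.15), the tight-junction protein occludin, Enpp3 (-1.11), an ectonucleotide pyrophosphatase, and Irs4 (-1.11), an insulin receptor substrate. The other probe set of Irs4, at a mean of 6.95, gave -0.014 with overlap. Cxcl12 (-1.08), Mcf2 (-1.01) and Myb (2.01-fold lower), a factor of blood progenitors, completed the 12. Without control 2 the differences of Mcf2 and Myb were -0.62 and -0.67. Mcf2 and Cpeb1 were dim, at the 23.9 and 30.8 percentile of mean level.

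Cxcl12 and its receptor Cxcr4 thus lay in opposite directions. Cxcl12 stood at 8.34, 8.84 and 9.23 and then at 9.59, 9.80 and 10.26, exactly the reverse of the Kdr sequence. Of the 49 higher genes 22, Kdr included, followed the Kdr sequence over all 6 arrays, and of the 13 lower genes 3 followed its reverse. Among all 18193 genes 154 and 127 did so. Any gene in the full sequence is wholly apart between the sides, so the rule itself raises these counts and nothing is read from them. Control 2 was the lowest array for 46 of the 49 and the highest for 12 of the 13. Control 3 was the highest for 38 of the 49 and the lowest for 13 of the 13. The rule lets only the arrays of a given side be the extreme, so it raises these counts too and nothing is read from them.

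**Figure D2:**
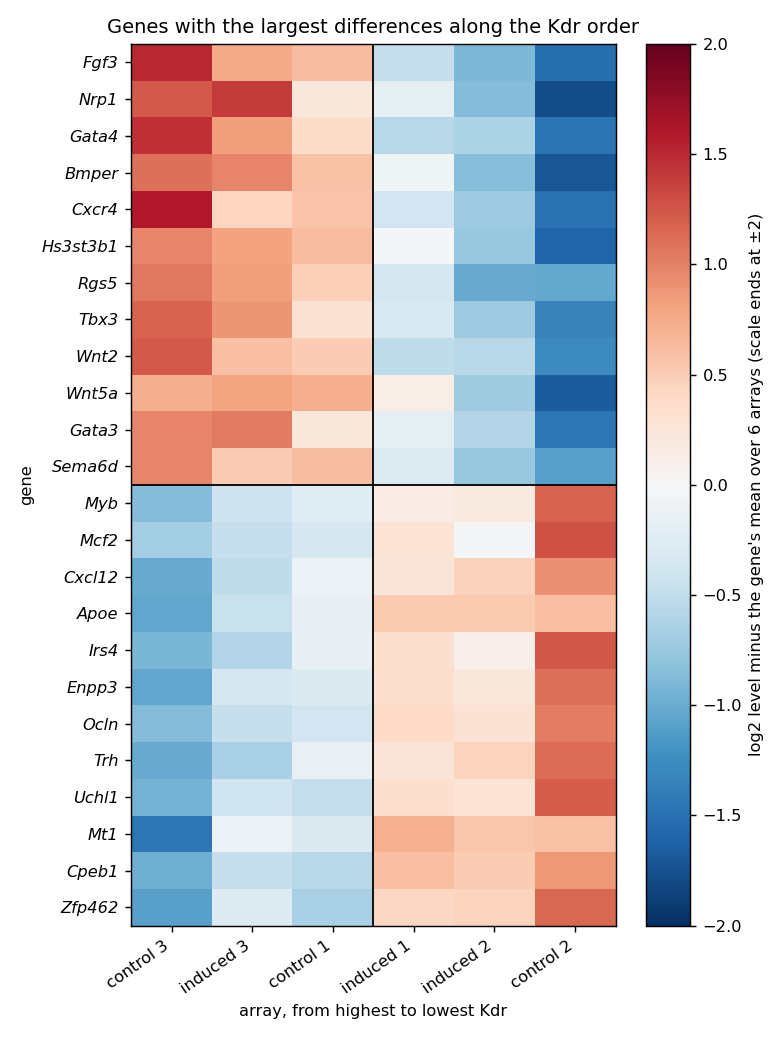
Colour shows each gene's log2 level minus its mean over the 6 arrays (scale ends at -2 and 2), with genes as rows and arrays as columns from highest to lowest Kdr. The 12 genes above the horizontal line are higher in the 3 arrays left of the vertical line, and the 12 below it are lower there. Control 3 and control 2, the first and last columns, hold most of the strongest colours, with induced 3 the highest array for Nrp1, Wnt5a and Gata3.

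The same difference was then taken within each treatment, where no array is shared. In the controls the Kdr level of arrays 1 and 3 exceeded that of array 2 by 2.10, and in the induced arrays that of array 3 exceeded arrays 1 and 2 by 1.06. Genes were chosen in the controls alone, as those with arrays 1 and 3 both above array 2 and a difference of at least 1. This gave 108 genes (0.594% of all), and in 106 of them (98.1%) induced 3 also lay above induced 1 and induced 2, against 28.5% of all genes. The exceptions were Pcdh17 and Plxna2, both with a positive mean difference. Of 91 genes lower in the controls by the same limit (0.500% of all), 82 (90.1%) had induced 3 below induced 1 and 2, against 31.4% of all genes. The arrays had been placed by Kdr, so this describes how far genes chosen in one treatment ran the same way in the other, and it is not a test.

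The 108 genes had a median difference of 1.38 in the controls and 0.72 in the induced arrays, and the 91 had -1.23 and -0.43. Choosing genes for a difference of at least 1 in the controls makes the smaller medians in the induced arrays likely in advance, and nothing is read from that drop. All 62 genes of the main rule differed more in the controls than in the induced arrays, whose Kdr levels spanned 1.16 against 2.57. Across all 18193 genes the within-control and within-induced differences correlated at r = 0.53, a value across genes, which are not independent replicates. Each difference is fixed by the deviation of 1 array from its group mean, control 2 or induced 3. This r is thus the correlation of those 2 arrays' deviations (-0.53) with its sign turned. It is the strongest among all pairs of a control and an induced array, and the Kdr order picked that pair. Gene by gene, Gata4 differed by 2.38 in the controls and 1.43 in the induced arrays, Fgf3 by 2.57 and 1.44, and Mesp1 by 1.69 and 0.66. Nrp1 differed by 2.50 and 1.92, while Foxc1, a forkhead factor of paraxial mesoderm, differed by 1.87 and 0.48.

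**Figure D3:**
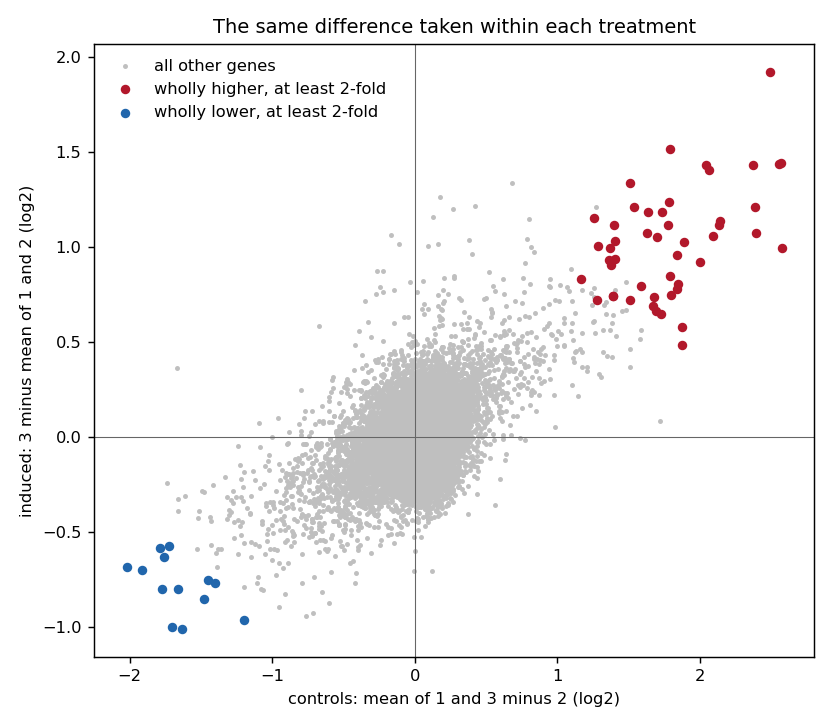
Each point is 1 of 18193 genes, with its log2 difference within the controls (array 1 and 3 minus array 2, x axis) and within the induced arrays (array 3 minus arrays 1 and 2, y axis). Red and blue mark the 49 genes wholly higher and the 13 wholly lower by at least 2-fold over all 6 arrays, a choice that fixes their sign. Etv2 is the grey point with 1.72 on the x axis and 0.083 on the y axis.

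Etv2, the ETS factor carried by the cassette, ran differently in the 2 treatments. In the controls it ran with Kdr, at 10.71 in control 3, 9.92 in control 1 and 8.59 in control 2. In the induced arrays it stood at 13.36, 13.27 and 13.28, a difference of 0.083 between induced 3 and the other induced arrays. The labels do not say which Etv2 transcript its probes detect.

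Induction itself was tested as a separate contrast, 3 induced against 3 control arrays, with limma over all 18193 genes. It called 1 gene at an adjusted p under 0.05 (0.0055% of genes), the purine salvage gene Hprt, and 2 with the replicate number as a block, Hprt and Exoc3l. None of the 62 genes of the Kdr order was among them, and 0 of the 62 had an unadjusted p under 0.05. Only 312 of all 18193 genes had such a p, so the 0 does not set the 62 genes apart. Their induced minus control differences lay between -0.60 and 0.77. The median standard error of that difference was 0.48 for the 62 genes and 0.098 for all genes. A gene chosen for a wide spread within both treatments must have a large error in that contrast.

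With the Kdr level of each array as a covariate, limma called 5 genes (0.0275%), all higher in the induced arrays. These were Etv2 (log2 difference 3.55 ± 0.18 SE, adjusted p = 3.2e-04), Hprt (1.57 ± 0.090, adjusted p = 4.5e-04), Exoc3l (1.32 ± 0.13, adjusted p = 0.019), Slc39a4 (0.84 ± 0.095, adjusted p = 0.044) and Rnase4 (0.91 ± 0.099, adjusted p = 0.044). Slc39a4 encodes a zinc importer and Rnase4 a secreted ribonuclease. Without the covariate the adjusted p was 0.39 for Etv2 and 0.42 for Exoc3l, and the log2 differences were 3.56 and 1.32. The covariate holds the same Kdr values that ordered the arrays, and they were measured after induction. The 5 calls are therefore given as a description. Of them, only Hprt was called by the contrast without a block or covariate. The induced minus control difference of Kdr itself was 0.016 ± 0.59 (SE).

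The fixed gene lists were then read along the order, with 10.5% of all genes wholly higher and 8.22% wholly lower as the background. Of 397 measured list genes, 101 were wholly higher and 62 wholly lower. Lists share some genes, such as Dll1, Snai1 and Bmp4, so the counts per list are not independent. The lists were chosen with earlier results of these data known, so these counts are descriptive. List members named below outside the rule given in the methods were chosen after their values were seen.

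Primitive streak genes were wholly higher in 9 of 16 measured members and wholly lower in 1, with a median difference of 0.34. Besides Mesp1, Tbx6, a T-box factor of paraxial mesoderm, stood at 9.15, 8.84 and 8.80 and then at 8.15, 8.06 and 7.30, a difference of 1.09. Mesp2 differed by 0.93, the epithelial-to-mesenchymal regulator Snai1 by 0.89 and the homeobox gene Lhx1 by 0.81. The early streak factors Eomes and Mixl1 differed by only 0.20 and 0.31 at levels above 13.1 on every array. Fgf8, a streak growth factor, was the member that was wholly lower, at -0.28, and brachyury was not analysed here.

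Lateral and cardiac mesoderm genes were wholly higher in 10 of 18 and wholly lower in 0, with a median of 0.31. Myl7, an atrial myosin light chain, stood at 8.18, 7.83 and 7.25 and then at 6.36, 6.63 and 6.20, a difference of 1.35. The factors Gata6 (0.93), Foxf1 (0.88), Hand2 (0.86) and Isl1 (0.77) and the ligand gene Bmp4 (0.77) were wholly higher as well. Later cardiac genes showed little difference: Nkx2-5 differed by -0.066, Tbx5 by -0.024, Tnnt2 by 0.060 and Tbx20 by 0.036.

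Paraxial mesoderm genes were wholly higher in 8 of 18 and wholly lower in 1, with a median of 0.19. Foxc1 stood at 8.91, 8.41 and 9.18 and then at 8.02, 7.84 and 7.17, a difference of 1.16. The Notch ligand gene Dll1 stood at 10.50, 9.90 and 10.05 and then at 9.29, 9.21 and 8.55, a difference of 1.13, and its relative Dll3 differed by 0.98. Presomitic Msgn1 (-0.071) and somitic Meox1 (-0.13) overlapped between the sides, and Tcf15 was wholly lower (-0.21).

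Among the receptors of early mesoderm and their ligands, 6 of 15 were wholly higher and 2 wholly lower, with a median of 0.27 that was 0.15 without control 2. Aplnr, the apelin receptor, stood at 13.42, 13.14 and 13.19 and then at 12.68, 12.54 and 11.89, and Nrp2 differed by 0.61. Kit, the stem cell factor receptor, was wholly lower at -0.29, and so was Apela, a ligand of Aplnr, at -0.61. The other VEGF receptors did not follow Kdr: Flt1 differed by 0.13 and Flt4 by -0.092, both with overlap.

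Pluripotency genes were wholly lower in 13 of 24 and wholly higher in 2, with a median of -0.42 that was -0.27 without control 2 and -0.24 without control 3. Dppa4 stood at 7.96, 9.06 and 9.12 and then at 9.81, 9.54 and 9.78, while Zfp42 and Utf1 both differed by -0.92. Nanog stood at 11.89, 11.92 and 12.10 and then at 12.39, 12.46 and 12.85, a difference of -0.60, and Sox2 differed by -0.59. The 2 members wholly higher were Sall4 (0.37) and Klf4 (0.26), and Tdgf1, a Nodal co-receptor, overlapped at 0.14. The mean level of the 24 genes was 9.33 to 9.55 on the upper side and 9.72 to 9.96 on the lower, although 9 of the 24 overlapped. The part of undifferentiated cells in the differences along the order was not tested.

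Epithelial genes were wholly lower in 11 of 14, with a median of -0.32. Ocln stood at 6.99, 7.40 and 7.48 and then at 8.26, 8.15 and 8.89. The tight-junction genes Marveld3 (-0.90), Cldn7 (-0.87) and Cldn6 (-0.60) and the adhesion gene Epcam (-0.49) were also lower. Cdh1, which encodes E-cadherin, differed by -0.30 and remained between 13.00 and 13.48 on all arrays, and the desmosomal gene Dsp was wholly higher (0.50).

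Mesenchymal genes were wholly higher in 6 of 15 and wholly lower in 0, with a median of 0.39. Lhfp stood at 8.74, 8.79 and 8.04 and then at 7.81, 7.40 and 6.75, a difference of 1.20. The cadherin Cdh11 differed by 0.76, the fibronectin gene Fn1 by 0.64 and the factor Twist1 by 0.52, while Snai2 (0.084), Twist2 (0.018) and Prrx1 (-0.063) overlapped. Without control 2 the median was 0.18.

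**Figure D4:**
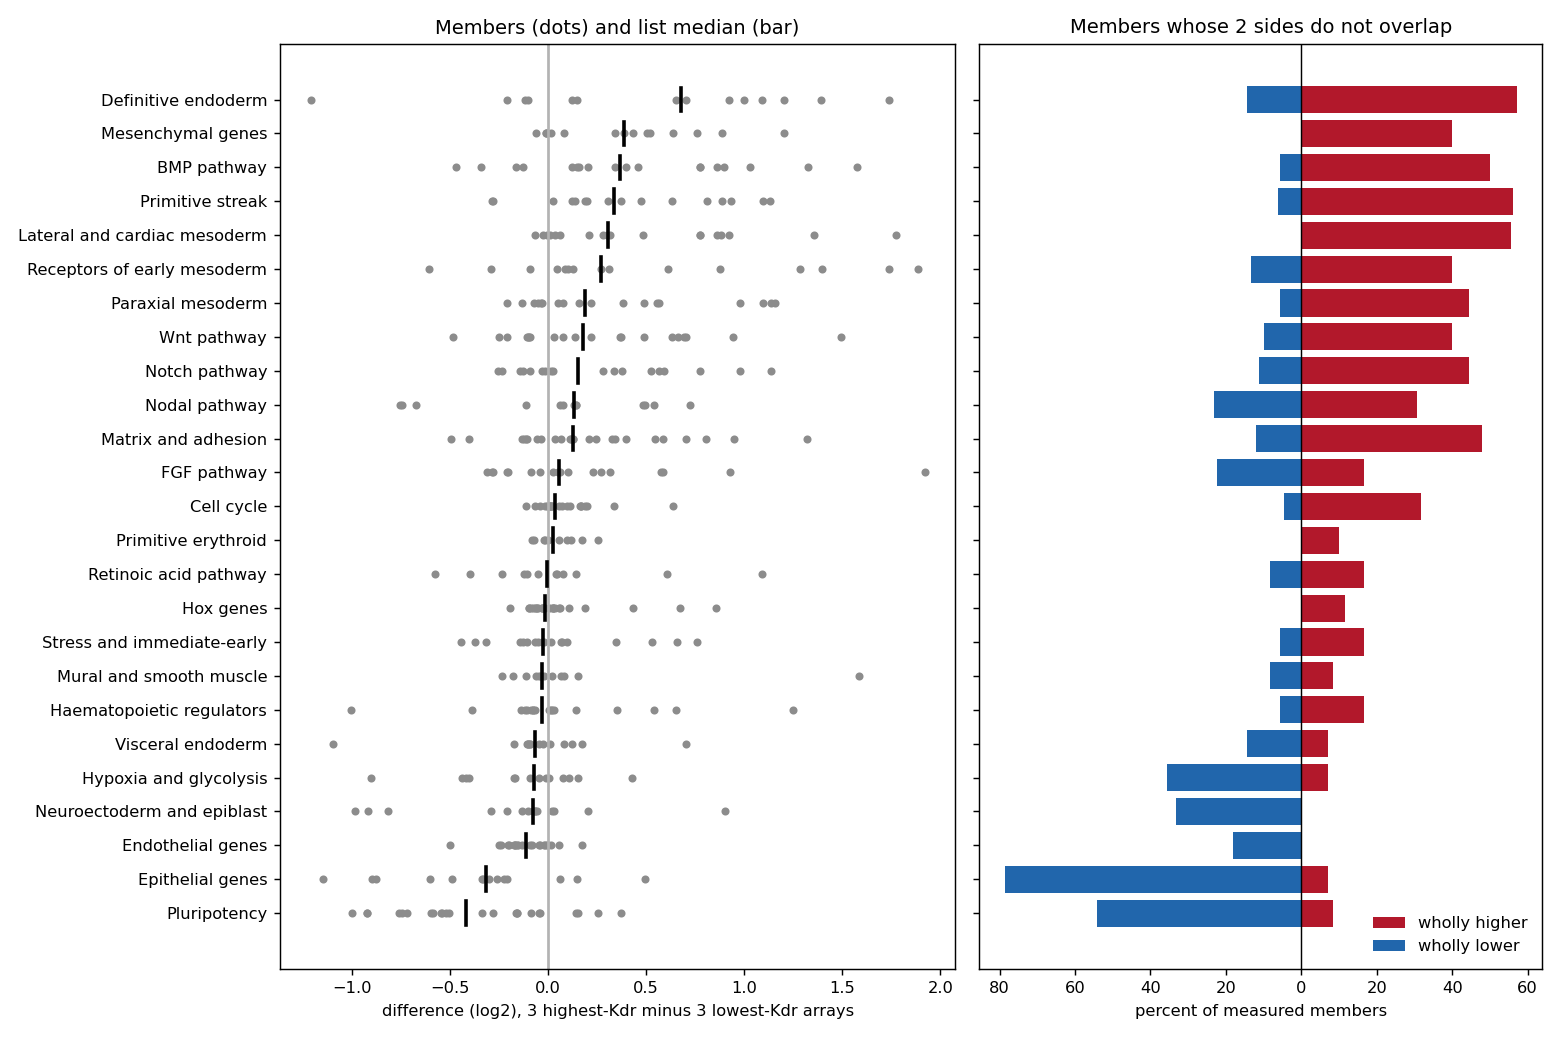
Left, log2 difference (upper 3 minus lower 3 arrays) of each member (dot) of 25 gene lists, with the list median as a bar. Right, percent of measured members wholly higher (red) and wholly lower (blue). Epithelial genes are wholly lower in 11 of 14 members and definitive endoderm genes wholly higher in 8 of 14.

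Signalling lists were uneven. BMP pathway genes were wholly higher in 9 of 18 and lower in 1, with a median of 0.37. Msx2, a homeobox target of BMP, stood at 10.36, 10.19 and 9.96 and then at 9.17, 8.97 and 8.38, a difference of 1.33, and Msx1 (0.90), the inhibitor genes Smad6 (0.86) and Bambi (0.78) and the target Id1 (0.46) lay the same way. Bmp2 differed by 1.03 but overlapped. Id2 (-0.47) and Id4 (-0.34) were negative, with overlap.

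Nodal pathway genes were split, with 4 of 13 wholly higher and 3 wholly lower. Nodal, the ligand that maintains the streak and epiblast, stood at 11.11, 11.46 and 11.73 and then at 12.02, 11.99 and 12.32, a difference of -0.67. Its antagonist Lefty1 (-0.76) and the related ligand Gdf3 (-0.75) were also lower, while the co-receptor Cfc1 (0.72) and the cofactor Foxh1 (0.49) were higher. Lefty2 overlapped at 0.50.

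Wnt pathway genes were wholly higher in 8 of 20 and lower in 2, with a median of 0.18 that was 0.063 without control 2. Frzb, a secreted Wnt antagonist, differed by 0.95, and the antagonist Dkk1 by 0.70, the effector Lef1 by 0.69 and Wnt5b by 0.66. Wnt8a (-0.48) was lower, and the feedback target Axin2 overlapped at 0.079. Notch pathway genes were wholly higher in 8 of 18 and lower in 2, with Notch1 at 0.78, Jag1 at 0.59 and Hey1 at 0.53. FGF pathway genes were wholly higher in 3 of 18 and lower in 4, so that Fgf3, at 1.92, stood apart from a list median of 0.058, and the FGF target Dusp6 overlapped at 0.10.

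Retinoic acid genes were wholly higher in 2 of 12 and lower in 1. Cyp26a1, which degrades retinoic acid, stood at 13.03, 12.81 and 12.76 and then at 12.18, 11.85 and 11.31, a difference of 1.09. Aldh1a2, which makes it, differed by 0.078 with overlap. Matrix and adhesion genes were wholly higher in 12 of 25 and lower in 3. Fbn2, a fibrillin, differed by 1.32 and Vcan, a proteoglycan, by 0.95, while the integrin Itga6 was lower by -0.49.

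Definitive endoderm genes had the largest list median, 0.68, with 8 of 14 wholly higher and 2 wholly lower. Sox17 stood at 10.81, 10.61 and 10.03 and then at 9.43, 9.56 and 8.29, a difference of 1.39. Kitl, the ligand of Kit, differed by 1.21, and Cer1, a secreted Nodal and BMP antagonist, by 1.00. The other probe sets of Kitl gave 0.27 without overlap, and 0.053 and -0.047 with overlap. Cxcr4, Gata6, Cyp26a1, Hhex and Dkk1 are on this list and on mesoderm, retinoic acid, haematopoietic or Wnt lists too. Hhex was wholly higher as well, Foxa2 and Foxa1 overlapped at -0.12 and -0.10, and Trh and Krt18 were wholly lower. The mean level of the list ran from 10.53 to 10.68 on the upper side and from 9.82 to 10.31 on the lower, and its part in the other differences was not tested.

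The next lists hold markers of other cell types that the gate could hold. Endothelial genes were wholly higher in 0 of 22 and lower in 4, with a median of -0.11. The mean level of the 22 genes was 6.79 to 7.01 on the 6 arrays, below every array median, which limits what they can show. Cdh5, which encodes VE-cadherin, stood at 6.38, 6.28 and 6.13 and then at 6.29, 6.75 and 6.24, and Egfl7 differed by -0.17. Induced 2 had an array median of 7.40 against 7.34 to 7.35 elsewhere and was the highest array for Cdh5. With each array centred on its median the list's median was -0.093.

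Haematopoietic regulators were wholly higher in 3 of 18 and lower in 1. Zfpm1, a cofactor of GATA proteins, stood at 9.37, 9.03 and 8.68 and then at 8.21, 7.94 and 7.19, a difference of 1.25. Myb stood at 8.15, 8.61 and 8.77 and then at 9.17, 9.19 and 10.19. Tal1 (0.35), Gata2 (0.54) and Runx1 (0.0040) overlapped. Primitive erythroid genes were wholly higher in 1 of 10, Tfrc at 0.26, whose most variable probe set gave -0.20 with overlap, and Epor overlapped at 0.058.

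Neuroectoderm and epiblast genes were wholly lower in 5 of 15 and higher in 0. Sox3 (-0.98), the amino acid transporter Slc7a3 (-0.92) and Pou3f1 (-0.82) were lower, whereas the abundant Otx2 overlapped at -0.10 and the methyltransferase gene Dnmt3b differed by -0.29. Visceral endoderm genes were wholly higher in 1 of 14 and lower in 2, and apart from Apoe the defining genes Ttr (-0.089), Afp (-0.046) and Hnf4a (-0.089) overlapped. Mural and smooth muscle genes were wholly higher in 1 of 12, Rgs5, and lower in 1.

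Cell cycle genes stood near 0, with a median of 0.038 (0.023 without control 2), 7 of 22 wholly higher and 1 lower. Pcna differed by 0.021 and Mcm7 by 0.072, while cyclin D2 (Ccnd2) was an exception at 0.64. Stress and immediate-early genes had a median of -0.025 that was 0.015 without control 2, with Atf4 at -0.020 and Ier2 at -0.11.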

How the data were processed

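RNA was measured on 6 Affymetrix mouse arrays. Values are on the log2 scale, 1 per probe set and array, as deposited by the authors. The submitters' processing notes name RMA, which removes background, makes the arrays' distributions equal and joins the probes of a set. Software and version: not given in the sources used here. Scanner files were not analysed, and background correction was kept as deposited. Of 45101 probe sets, 34945 had 1 symbol in the GEO platform annotation, without control probe sets. Each of 18193 genes was taken from its probe set with the highest mean over 6 arrays. No filter on dim genes was applied, and the number of arrays limits the precision.

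Arrays were ordered by Kdr. A gene counts as higher or lower when the sides do not overlap and differ by at least 1 on the log2 scale. The induced minus control contrast used lmFit and eBayes of limma 3.58.1 under R 4.3.3, two-sided, Benjamini-Hochberg over all genes, threshold 0.05. An exact permutation test of 3 against 3 cannot go below 0.1. The fit was tested on simulated data. Deviations of same-numbered arrays from their group means correlated at r = 0.16, 0.22 and 0.41 for numbers 1, 2 and 3, all above 0.1, the limit used for taking the numbers as pairs. Unmatched numbers correlated as high or higher in places: control 1 with induced 3 at 0.24, and control 2 with induced 1 at 0.30. No label gives a shared day.

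Named genes are Kdr, Mesp1, Pdgfra, Pou5f1 and Etv2, the 12 largest differences each way among counted genes without clone names, and from each of 25 lists up to 5 counted members, or with none the 2 members of highest mean level. Any other gene was chosen after its values were seen. Of 419 list genes 397 were measured. The order, members, lists and tests were chosen with earlier results of these data known. Alternatives were the most variable probe set, centring, quantile normalization, a filter on dim genes, a 1.5-fold limit, treatment as a term, each treatment alone, and leaving out each array. For induction they also included the replicate block and the Kdr covariate. Promoters came from RefSeq (GRCm38.p6).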

Additional observations from a re-analysis of the deposited data

How the results depend on the processing

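Along the Kdr order, 49 genes were higher and 13 lower. A 1.5-fold limit gave 161 and 129, controls alone 108 and 91, and the induced arrays alone 38 and 2. Leaving out each array in turn gave 26 to 80 higher and 4 to 29 lower; fewer arrays on a side make it easier for the sides not to overlap. Of the 49 and 13, 25 and 4 remained without control 2, and 37 and 4 without control 3. Centring, quantile normalization, the most variable probe set, the filter on dim genes and treatment as a term moved neither count by over 1.5 times. Of 720 values of the 56 named genes under these alternatives 666 moved by less than the spread between arrays of a side and 54 by more. Among counted genes 0 values changed sign. Their sides do not overlap by the rule, which fixes the sign when an array is left out or a treatment is taken alone. Some named genes that were not counted did change sign. Tfrc turned to -0.20 with the most variable probe set, and Etv2 went from -0.39 to 1.72 in the controls alone. Others with small differences, such as Epor and Aldoa, changed sign too. Of 45 other probe sets of the counted named genes 42 had the same sign and 3 the opposite. A shared sign says little where a probe set overlapped between the sides and differed little. Examples are Irs4 (-0.014), Tbx3 (0.050) and Msx2 (0.062), each for 1 of its other probe sets. Induction changed 1 gene by limma, 2 with the replicate block, which ended no call, 5 with the Kdr level as a covariate, and 0 to 3 without each array in turn. Hprt was lost without control 1, control 3 or induced 1, and Etv2 and Slc39a4 were gained without control 2. Signal over background limits dim genes, and 51 of the 62 counted genes lay above the median level.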

Other observations

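Hox genes were wholly higher in 3 of 26 measured members and lower in 0, a share near the 10.5% of all genes that were wholly higher. The 3 were Hoxb1, Hoxb2 and Hoxd1. Hoxb1, an anterior Hox gene of streak and early mesoderm, stood at 9.11, 8.85 and 8.80 and then at 8.36, 8.13 and 7.70 in the Kdr order, a difference of 0.86. Hoxb2 differed by 0.67 and Hoxd1 by 0.43, whereas Hoxa5 overlapped at -0.19 and the list median was -0.016.

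Hypoxia and glycolysis genes were wholly lower in 5 of 14 and higher in 1. Pdk1, a kinase that restrains pyruvate oxidation, stood at 9.30, 10.05 and 9.62 and then at 10.63, 10.35 and 10.70, a difference of -0.90. The glucose transporter Slc2a3 (-0.42) and the mitophagy gene Bnip3 (-0.40) were lower too, while Ldha was higher at 0.11 and Aldoa overlapped at -0.0077. Among immediate-early genes Egr2 (0.76), Fos (0.66) and Egr1 (0.53) were wholly higher. Zic2, a zinc-finger gene of neuroectoderm, stood at 7.84, 9.37 and 9.61 and then at 8.25, 7.82 and 8.04, so that control 3 was among the lowest arrays for it while induced 3 and control 1 were the highest. These genes were chosen after their values were seen.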
